A study of Homo sapiens with 19 samples.

Results

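A set of 9 genes of cellular iron handling, FTH1, FTL, TFRC, SLC40A1, SLC11A2, IREB2, ACO1, NCOA4 and HMOX1, was followed through 19 libraries of human cell lines. They were chosen by name, for their known roles in storing, importing, exporting and sensing iron. No cutoff on a measured value was used, but earlier results of these data were known when they were chosen. They are 9 of the 22760 genes that had at least 1 spliced read. Of their 170 introns annotated by GENCODE 29, 152 carried reads. The measure throughout was the number of reads that span an annotated intron.

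The libraries came from 3 lines. A375, a melanoma line, was represented by total, nuclear and cytoplasmic RNA, with 1 library each. The fractions were made by lysing cells in a low-salt buffer with Triton X-100, so that the supernatant was the cytoplasmic fraction and the washed pellet the nuclear one. HEK293, an embryonic kidney line, had 1 library of total RNA. HUES66, a human embryonic stem cell line, had 1 wild-type library, for which the labels do not settle whether doxycycline was given, and 14 libraries treated with 1 ug/ml doxycycline. These 14 were 3 controls, labelled WT, 3 libraries with all RBFOX2 lowered (total KD), and 4 each with the N-short or the N-long form lowered (N-short KD, N-long KD), collected at 24, 48 and 96 hr. RBFOX2 is a splicing factor made with a shorter or a longer N-terminus, and the series title names Cas13d, an RNA-cutting nuclease, as the means of lowering it. The 24 hr libraries form 2 sets, of which replicate 1 has no doxycycline-treated control and replicate 2 no total KD, and the 48 and 96 hr libraries form 1 set each with all 4 groups. The labels do not say that replicates were separate cultures, so p-values measure the spread between these libraries, which may be technical.

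Iron inside a cell is stored in the ferritin shell, built of heavy (FTH1) and light (FTL) chains. It enters with transferrin through the transferrin receptor (TFRC), crosses the endosomal membrane through the transporter DMT1 (SLC11A2), and leaves through ferroportin (SLC40A1). The iron regulatory proteins, IRP1 (ACO1) and IRP2 (IREB2), bind a hairpin called the iron responsive element when iron is scarce. Bound near the start of the ferritin and ferroportin messengers, they block translation. Bound in the 3' UTR of TFRC, they protect the messenger from decay. NCOA4 delivers ferritin to the lysosome for release of its iron, and heme oxygenase 1 (HMOX1) frees iron from heme.

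The hairpin letters are shown because they divide the genes into those read at the start and those read at the end of the messenger. Each window of 30 bases below was read 5' to 3' from the GENCODE 29 transcripts (GRCh38), with the unpaired C and the loop of 6 bases, CAGTGN, in capitals.
FTH1, 5' UTR in exon 1, minus strand, 11:61967573-61967602: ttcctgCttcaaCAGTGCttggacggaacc
FTL, 5' UTR in exon 1, plus strand, 19:48965335-48965364: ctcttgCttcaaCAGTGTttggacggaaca
SLC40A1, 5' UTR in exon 1, minus strand, 2:189580660-189580689: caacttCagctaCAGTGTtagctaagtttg
TFRC, 3' UTR, minus strand, 3:196050462-196050491: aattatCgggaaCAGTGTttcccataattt
TFRC, 3' UTR, minus strand, 3:196050509-196050538: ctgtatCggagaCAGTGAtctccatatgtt
TFRC, 3' UTR, minus strand, 3:196050574-196050603: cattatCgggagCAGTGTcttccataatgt
TFRC, 3' UTR, minus strand, 3:196050978-196051007: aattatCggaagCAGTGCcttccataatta
SLC11A2, 3' UTR, minus strand, 12:50988268-50988297: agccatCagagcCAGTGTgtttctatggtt

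The search required a C, 5 bases, CAGTGN and 5 bases that pair with the first 5, G-U pairs included, on the transcript's own strand only. A full match was found in 4 of the 9 genes, FTH1, FTL, SLC40A1 and TFRC, and in 276 genes of all those with a protein-coding basic transcript (1.40%). The ferritin windows were identical at 26 of 30 bases. TFRC held 4 matches in its last exon. Allowing 1 unpaired position brought in SLC11A2, ACO1 and IREB2, so that 7 of the 9 matched, beside 10.9% of all genes. For SLC11A2 the letters lie in 5 of its 11 transcripts and in none of the 3 that use its distal last exon. The 9 genes were chosen for their roles in iron handling, so these counts beside all genes are no test. A match is a description of letters, not a measured binding site.

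Junction reads per library ran from 6499183 in A375 nuclear to 27937149 in wild-type HUES66, and from 9622841 to 14625040 in the doxycycline libraries. Between 93.3% and 94.8% of them lay on an annotated intron of a single gene. A level below is given per 1000000 of those reads (CPM), summed over a gene's introns for comparing a gene between libraries, and as the mean over the introns of the principal transcript (CPM per intron) for comparing genes. Of 10 stem cell markers, 10 reached 1 CPM in HUES66 and 2 in A375 and HEK293. A375 had 6 of 10 melanoma markers, with MLANA and TYR at 0, and HEK293 had 8 of its 8. These 2 lists do not separate the lines fully, since 5 of the 8 HEK293 markers also reached 1 CPM in A375 and 4 in HUES66, as did 3 melanoma markers in HUES66. Fibroblast markers summed to 440 CPM in wild-type HUES66, 365 to 577 in the doxycycline libraries, 132 in HEK293 and 8.75 in A375, with DCN at 0 in the 3 single libraries. Their part in the results was not tested. Erythroid markers summed to at most 3.80 CPM in A375, HEK293 and HUES66, and macrophage markers to at most 21.6 CPM, in A375, with CD163 at 0. Bulk libraries do not tell fewer expressing cells from less RNA per cell.

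Per intron, FTH1 and FTL were the highest of the 9 genes in each line, and the ratio of heavy to light chain differed between lines. FTH1 (11:61959718-61967660, minus strand) gave 586 CPM per intron in A375, 75.6 in HEK293, 215 in wild-type HUES66 and 219 ± 10.2 (SD, n = 14) in the doxycycline libraries. FTL (19:48965301-48966878, plus strand) gave 89.0, 53.4, 134 and 136 ± 13.0 in the same order. The FTH1 to FTL ratio per intron was thus 6.59 in A375, 1.41 in HEK293 and 1.61 in wild-type HUES66, and ran from 1.33 in the 96 hr total KD to 1.80 in N-short KD at 24 hr, replicate 2. FTH1 has 25 annotated processed pseudogenes and FTL 16, which lack introns. Spliced reads that also align to those copies may have been assigned differently, so ferritin levels are less certain than the rest.

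Transferrin receptor and the regulators came next. In the doxycycline libraries IREB2 (15:78437431-78501456) averaged 12.1 ± 0.505 CPM per intron (SD, n = 14) and TFRC (3:196027183-196082189) 11.5 ± 1.82, and their ranges overlapped (11.2 to 12.8 against 8.80 to 15.8). NCOA4 (10:46005088-46030714) at 6.88 ± 0.345 and ACO1 (9:32384603-32454769) at 6.25 ± 0.330 overlapped too. The place of NCOA4 depended on the summary, since the median over its introns was 9.68. In the A375 fractions, reads lay on 7 of the 11 introns of its principal transcript, so introns without reads lowered its mean there. By the median, its lowest doxycycline library (8.8996, total KD at 48 hr) was above the highest of ACO1 (6.934, N-short KD at 48 hr). In A375 total the NCOA4 median, 11.5, was above that of IREB2, and in HEK293 and wild-type HUES66 it was below. SLC11A2 (12:50979401-51028566) followed at 4.44 ± 0.354 and HMOX1 (22:35380361-35394214) at 1.63 ± 0.564, with no overlap between these or with NCOA4 and ACO1. In wild-type HUES66 the values were 11.4 for IREB2, 13.4 for TFRC, 7.33 for NCOA4, 6.02 for ACO1, 4.43 for SLC11A2 and 2.17 for HMOX1. In HEK293 TFRC was at 23.7 CPM per intron, IREB2 at 13.2, NCOA4 at 10.8 and ACO1 at 5.28. A375 had TFRC at 14.7, IREB2 at 9.06, NCOA4 at 7.81, ACO1 at 4.24, SLC11A2 at 2.28 and HMOX1 at 1.14. TFRC thus stood above IREB2, and NCOA4 above ACO1, in the single library of each line.

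Ferroportin, the sole known iron exporter, was seen at a readable level in HEK293 alone. SLC40A1 (2:189560579-189583758) had 65 reads there, or 7.23 CPM (exact 95% interval 5.58 to 9.21). A375 total had 1 read, the cytoplasmic fraction 5 and the nuclear fraction 0, for which the exact 95% interval reaches 0.608 CPM. Wild-type HUES66 had 1 read, and the doxycycline libraries had 0 to 5, with 0 in 4 of the 14. Such intervals and limits cover counting error only. SLC40A1 was too low for the knockdown fit and has no test below.

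**Figure D1:**
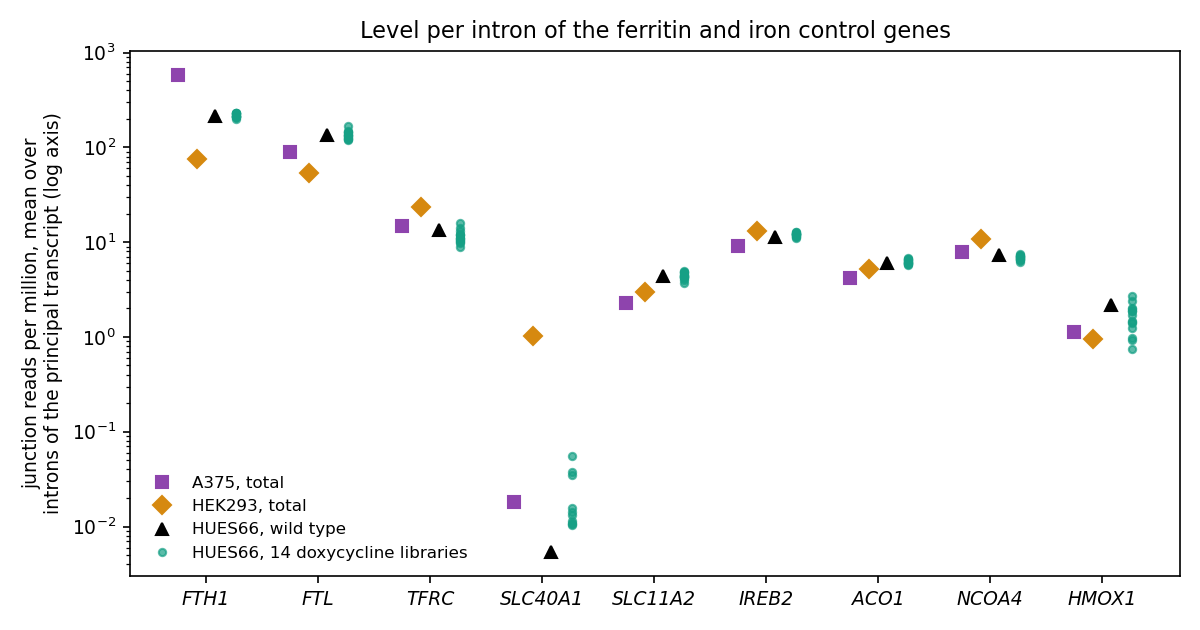
Level in CPM, averaged over the introns of each gene's principal transcript (log axis), for the 9 genes; squares, diamonds and triangles are the single A375, HEK293 and wild-type HUES66 libraries and small circles the 14 doxycycline-treated HUES66 libraries, with libraries at 0 not drawn. FTH1 in A375, at 586, stands above the other FTH1 points, and SLC40A1 is near 1 in HEK293 alone.

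Between lines, the heavy ferritin chain showed the widest gap among the genes with readable counts. In summed CPM FTH1 was 1769 in A375, 647 in wild-type HUES66 and 227 in HEK293, which is 7.77-fold higher in A375 than in HEK293 (95% counting interval 7.42 to 8.15), 2.73-fold higher than in HUES66 (2.67 to 2.79) and 2.84-fold higher in HUES66 than in HEK293 (2.72 to 2.98). FTL did not follow the same order, with 401 CPM in HUES66, 267 in A375 and 160 in HEK293. TFRC was 427 CPM in HEK293, 265 in A375 and 241 in HUES66, the reverse of FTH1 for HEK293. With 1 library a line there is no test, and the intervals hold no culture-to-culture spread. The 3 libraries also belong to 3 different library series, so among them line and series cannot be told apart. No library of another line shares the series of A375. HEK293 shares its series with the doxycycline-treated HUES66 libraries of 24 hr replicate 2. The control of that set had FTH1 at 631, FTL at 385 and TFRC at 200 CPM, against 227, 160 and 427 in HEK293.

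Counted against a 2-fold limit, 1 of 9 genes was higher and 1 lower in A375 than in HEK293, FTH1 and SLC40A1 (1 against 65 reads, ratio 0.0261, interval 0.000437 to 0.101). Over all 12602 genes with at least 20 reads in the pair, 19.3% were higher and 18.9% lower, or 38.1% past the limit. In A375 against HUES66 1 gene was higher, FTH1, and 0 lower, beside 22.6% and 22.5% (45.1%) of all genes. In HUES66 against HEK293, FTH1, FTL and HMOX1 were higher, 3 of 9, and SLC40A1 lower, again 1 against 65 reads, beside 19.9% and 20.2% (40.1%). HMOX1 there was 8.67 against 3.78 CPM, a ratio of 2.27 (1.60 to 3.39). SLC11A2 was 69.2 CPM in HUES66, 47.8 in HEK293 and 37.0 in A375.

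IREB2, ACO1 and NCOA4 varied less. IREB2 was 278 CPM in HEK293, 240 in HUES66 and 191 in A375. ACO1 was 121 in HUES66, 106 in HEK293 and 84.8 in A375, and NCOA4 151, 103 and 108 in HEK293, HUES66 and A375. Scaling by trimmed means (TMM) moved all log2 ratios by 0.10 for A375 against HEK293, by -0.15 for A375 against HUES66 and by 0.22 for HUES66 against HEK293. With it the direction turned for TFRC and NCOA4 in A375 against HUES66 (log2 0.14 to -0.01 and 0.07 to -0.08) and for IREB2 in HUES66 against HEK293 (-0.21 to 0.01), so that these 3 differences have no settled sign.

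The A375 fractions separated ferritin from the iron importers. TFRC and SLC11A2 had the higher CPM in the nuclear fraction, FTH1 and FTL in the cytoplasmic one, and the regulators lay between. CPM is scaled to the reads of each library, so the ratios of fractions give relative enrichment. Without the RNA yield of each fraction they do not say where most of a gene's RNA lay. TFRC gave 470 CPM in the nuclear, 39.0 in the cytoplasmic and 265 in the total library, a nuclear to cytoplasmic ratio of 12.04 (95% counting interval 11.1 to 13.0). SLC11A2 gave 52.4, 7.97 and 37.0, a ratio of 6.57 (5.43 to 7.98). FTH1 gave 358, 4766 and 1769 CPM, a ratio of 0.0750 (0.0719 to 0.0783), and FTL gave 68.7, 716 and 267, a ratio of 0.0961 (0.0869 to 0.106). For these 4 genes the total library lay between the fractions.

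Of the 8 genes with at least 20 reads in the pair of fractions, 2 were at least 2-fold nuclear and 2 at least 2-fold cytoplasmic. Among all 12759 such genes 22.8% were nuclear and 19.1% cytoplasmic by that limit, 41.9% in all, and the median ratio was 0.929. TFRC stood at percentile 97.8 of those genes and SLC11A2 at 92.7, while FTL stood at 0.251 and FTH1 at 0.180. ACO1 had a ratio of 1.28 (1.16 to 1.40), IREB2 0.981 (0.914 to 1.05), NCOA4 0.721 (0.659 to 0.788) and HMOX1, from 19 nuclear reads, 0.615 (0.349 to 0.986). These are single libraries, and no test applies.

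**Figure D2:**
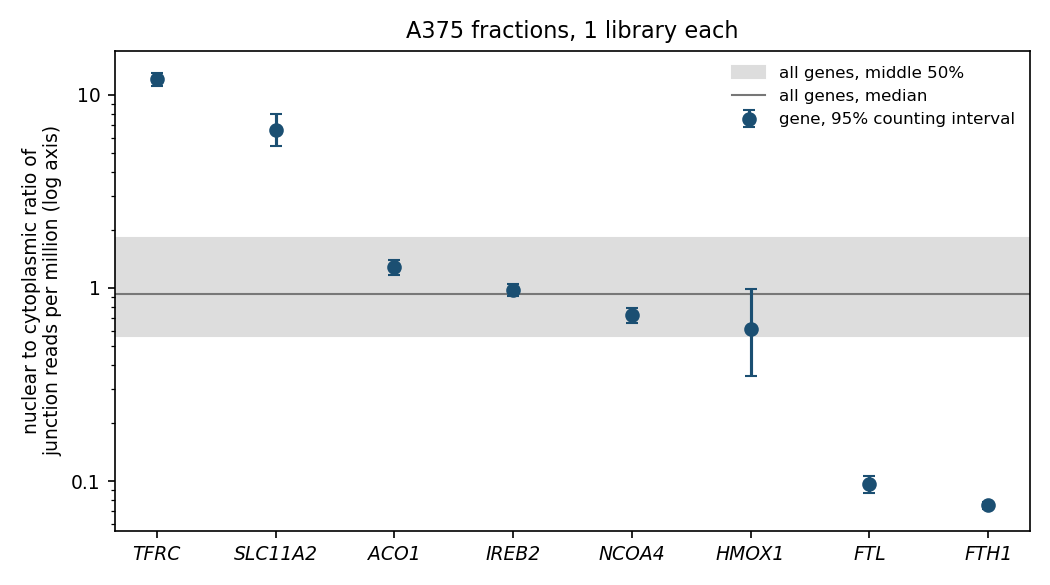
Nuclear to cytoplasmic ratio of CPM in A375 (log axis) for the 8 genes with enough reads; bars are 95% counting intervals, the line is the median of all genes, 0.929, and the grey band their middle 50%. TFRC at 12.04 and SLC11A2 at 6.57 lie above the band, and FTL at 0.0961 and FTH1 at 0.0750 below it.

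Within the ferritin genes and TFRC, every intron lay on the same side of the 2-fold limit. The 18 introns of TFRC ranged from 8.46 to 16.8, and the 13 introns of SLC11A2 with enough reads from 3.45 to 13.2. FTH1 introns ranged from 0.0616 to 0.0911 and FTL introns from 0.0881 to 0.100. IREB2 ranged from 0.732 to 1.24, ACO1 from 0.778 to 2.48, which crosses the 2-fold limit, NCOA4 from 0.608 to 0.899 and HMOX1 from 0.583 to 0.761. Introns of 1 gene share a transcript and a library and are not replicates.

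**Figure D3:**
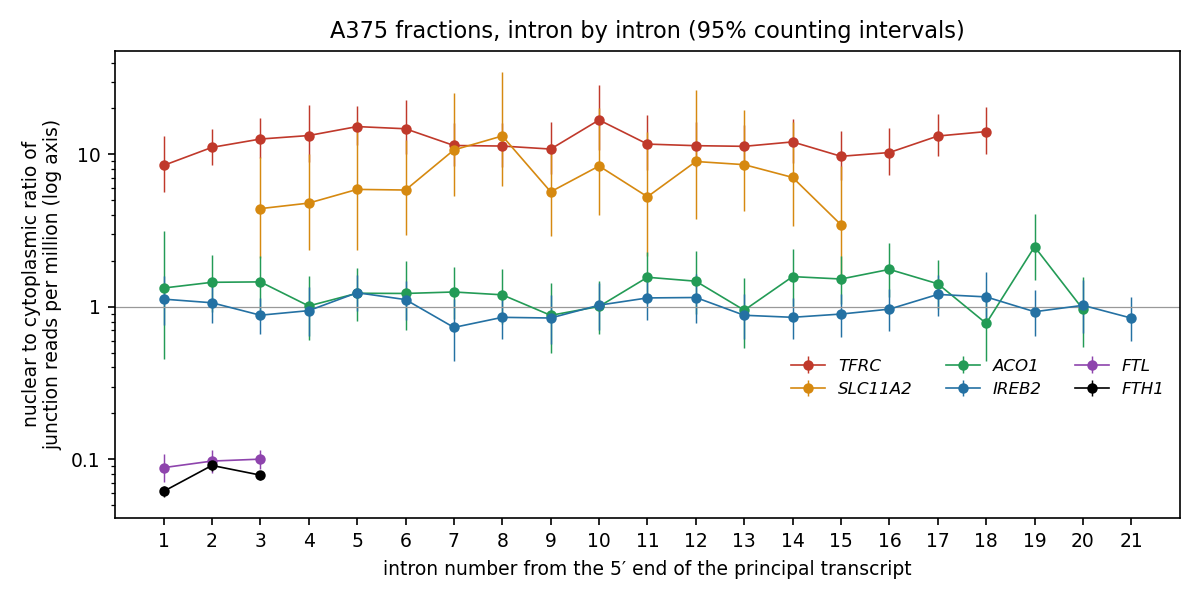
Nuclear to cytoplasmic ratio in A375 (log axis) for each intron with at least 20 reads, numbered from the 5' end, by gene. All 18 TFRC introns lie between 8.46 and 16.8, and the FTH1 and FTL introns lie between 0.0616 and 0.100.

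The same libraries showed what the fractions separated. MALAT1, a nuclear RNA, had a ratio of 29.2, and 8 nuclear RNAs with enough reads had a median of 2.35, with OIP5-AS1 at 0.226. The 10 cytoplasmic RNAs had a median of 0.428, from 0.263 for TPT1 to 0.602 for EEF2, and each of these values is above those of FTH1 and FTL. Of other membrane proteins, 18 of 19 integrin genes were at least 2-fold nuclear (median 10.9), as were 132 of 160 solute carriers other than SLC25 (median 4.32), beside 22.8% of all genes. In the same count 2 of 39 mitochondrial SLC25 carriers were (median 0.612). The integrin and carrier lists were chosen after fraction values had been seen. Their part in the TFRC and SLC11A2 ratios was not tested.

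Other iron genes were counted by the same limit, beside the 22.8% of all genes that were nuclear and the 19.1% that were cytoplasmic. In the list for uptake and mobilisation, 5 of 9 genes with enough reads were at least 2-fold nuclear, among them the zinc and iron transporter SLC39A14 (8.70) and the ferric reductases STEAP3 (7.80) and CYBRD1 (4.07), and 2 were cytoplasmic, the RNA-binding proteins PCBP2 (0.372) and PCBP4 (0.444). In the list for export and systemic control, 4 of 4 were: NEO1 (13.2), HFE (10.4), BMP6 (6.68) and BMPR2 (3.45). None of 22 iron-sulfur cluster genes was nuclear by that limit and 11 were cytoplasmic, with GLRX5 at 0.135. In the heme list, 2 of 15 were nuclear, with the heme exporter FLVCR1 at 5.88, and 3 cytoplasmic, with UROS, an enzyme of heme synthesis, at 0.298. Among 12 oxidative stress genes, 1 was nuclear, the cystine carrier SLC7A11 (10.4), and 4 were cytoplasmic, with MAFG at 0.100. In the turnover list 1 of 8 was nuclear, ATG9A (4.95), and 0 cytoplasmic, and of the 4 other genes with an iron responsive element 0 were past the limit either way.

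RBFOX2 itself, counted over all its promoters, fell in total KD and N-long KD. It was 126 to 133 CPM in the 3 controls, 51.1 to 83.3 with total KD, 76.7 to 92.7 with N-long KD and 113 to 128 with N-short KD. The log2 difference from control was -0.82 (SE 0.079, edgeR quasi-likelihood adjusted p = 8.6e-09) for total KD, -0.57 (adjusted p = 2.7e-05) for N-long KD and -0.06 (adjusted p = 0.999) for N-short KD. The summed reads do not separate the N-short from the N-long form, so they do not check the N-short label.

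Total RBFOX2 knockdown was the one knockdown in which iron genes passed the test against control: the transferrin receptor fell and the ferritin light chain rose. By edgeR's quasi-likelihood test, 2 of the 8 genes in the fit were called (adjusted p under 0.05 over 13393 genes), beside 2.28% of all genes. TFRC was the 1 gene called lower, beside 1.24%, and FTL the 1 called higher, beside 1.04%. Library set entered the fit as a block, and without that block 0 of 8 were called (62 of all genes).

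TFRC was 200, 285 and 198 CPM in the controls of 24 hr replicate 2, 48 hr and 96 hr. In total KD it was 188, 219 and 181 CPM at 24 hr replicate 1, 48 hr and 96 hr. The groups overlap across times, because the 48 hr set was high in every group, while within each set that holds both the knockdown was the lower. It stood at 76.8% of control at 48 hr (95% counting interval 73.0 to 80.7) and 91.3% at 96 hr (85.9 to 96.9). At 24 hr replicate 1, which has no doxycycline-treated control, it stood at 78.1% of wild-type HUES66, beside 89.0% for N-short KD and 88.6% for N-long KD. The log2 difference was -0.31 (SE 0.048, edgeR adjusted p = 6.9e-05), a fall of 19.1%, in 2 of 2 sets. Leaving out each library in turn left it between -0.37 and -0.27 and called each time.

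FTL was 385, 404 and 368 CPM in the controls and 446, 434 and 504 in total KD, so the groups do not overlap. At 24 hr they come from different sets, and replicate 1 was also above replicate 2 in N-short KD (430 against 358) and N-long KD (406 against 371). Total KD stood at 107% of control at 48 hr (103 to 112) and 137% at 96 hr (132 to 142). At 24 hr it stood at 111% of wild-type HUES66, beside 107% for N-short KD and 101% for N-long KD. The log2 difference of FTL in total KD from control was 0.20 (SE 0.053, edgeR adjusted p = 0.029), a rise of 15.1%, in 2 of 2 sets. The call rested on few libraries. It was lost without the 96 hr total KD (log2 0.08, adjusted p = 0.560), without the 96 hr control (adjusted p = 0.392) and without the 48 hr control (adjusted p = 0.094). DESeq2 gave the same size, 0.20, with an adjusted p of 0.248.

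The other 6 genes did not pass in total KD. FTH1, the partner of FTL in the ferritin shell, was 631, 693 and 599 CPM in the controls and 690, 695 and 674 in total KD (log2 0.08, SE 0.034, edgeR adjusted p = 0.235). IREB2 differed by 0.10 (edgeR adjusted p = 0.206), ACO1 by -0.08 (0.531), NCOA4 by -0.05 (0.764), SLC11A2 by -0.06 (0.801) and HMOX1 by 0.13 (0.83). HMOX1 had the widest spread, with 57 to 96 reads in the controls, so that its 95% interval ran from -0.20 to 0.46. Its sign turned when the control of 96 hr (-0.11) or the total KD of 96 hr (-0.02) was left out.

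Along the transcripts, TFRC introns moved together. All 18 TFRC junctions in the fit were lower in total KD, and 1 was called by itself, the last intron, 3:196052185-196053417 (log2 -0.54, edgeR adjusted p = 0.0044). Of the 3 FTL junctions, 2 were called higher, 19:48965610-48965769 at 0.31 (adjusted p = 0.00036) and 19:48966407-48966582 at 0.22 (adjusted p = 0.0073). Beside these, 0.458% of the 117142 junctions tested by edgeR were called.

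**Figure D4:**
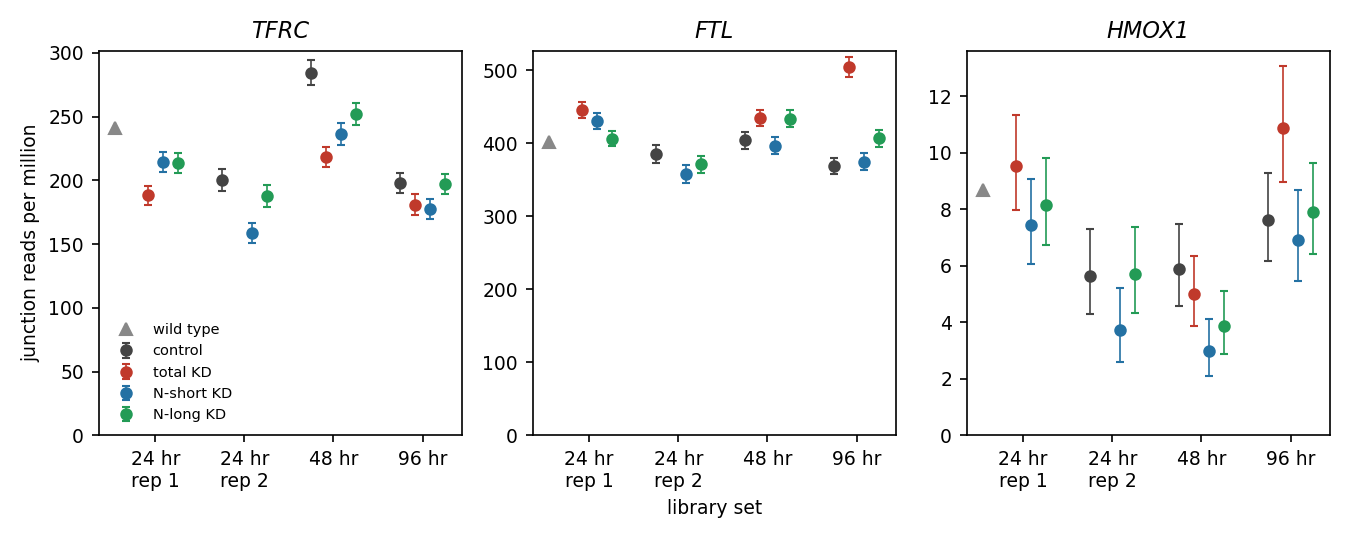
Level in CPM of TFRC, FTL and HMOX1 in the 14 doxycycline-treated HUES66 libraries, by library set and, in colour, knockdown; bars are exact 95% Poisson intervals and the grey triangle is wild-type HUES66. FTL is highest in the 96 hr total KD, at 504, and TFRC is highest in the 48 hr control, at 285.

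Neither isoform-specific knockdown gave a called iron gene. In N-short KD 0 of 8 were called by edgeR, beside 0.00747% of all genes, with 2 of the 8 at an unadjusted p under 0.05. TFRC was 214, 159, 236 and 178 CPM at 24 hr replicates 1 and 2, 48 hr and 96 hr, or 79.3%, 83.1% and 89.7% of control in the 3 sets that hold a control. Its log2 difference was -0.23 (SE 0.043) with an edgeR adjusted p of 0.0566, just short of the threshold. All 18 of its junctions were lower, 0 of them called beside 0.0111% of junctions. HMOX1 was 7.45, 3.73, 2.98 and 6.92 CPM in N-short KD, and 66.1%, 50.6% and 91.0% of control (log2 -0.45, SE 0.17, edgeR adjusted p = 0.999). FTL differed by -0.01.

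The TFRC result in N-short KD was near enough to the threshold to turn on small choices. It was called with no filter on low genes (edgeR adjusted p = 9.3e-05), with wild-type HUES66 counted as a control (adjusted p = 0.0058) and in 5 of the 14 fits that left out 1 library, namely each of the 3 libraries of 24 hr replicate 1, the 96 hr control and the 96 hr total KD. DESeq2 called 0 of 8.

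In N-long KD 0 of 8 were called, beside 0.0224% of all genes and 0 of their junctions beside 0.0444%. TFRC was 214, 188, 252 and 197 CPM, or 93.8%, 88.5% and 99.5% of control (log2 -0.11, SE 0.043, edgeR quasi-likelihood adjusted p = 1.00). It was the 1 gene of the 8 at an unadjusted p under 0.05. FTL differed by 0.05 and HMOX1 by -0.16. N-long against N-short KD also gave 0 of 8, beside 0.0149% of genes and 0.0316% of junctions. TFRC was higher in N-long KD by 0.12 on the log2 scale (95% interval 0.04 to 0.20, edgeR adjusted p = 0.915), and DESeq2 called 0 of 8 as well.

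Set against the isoform knockdowns, total KD had more FTL and HMOX1 than N-short KD and less TFRC than N-long KD. These comparisons were added after the data had been seen, and they share the total KD libraries with the comparison above. Against N-short KD 2 of 8 were called, beside 3.08% of genes. FTL differed by 0.21 (SE 0.048, edgeR adjusted p = 0.0070) and was higher in 3 of 3 sets. HMOX1 differed by 0.58 (SE 0.15, adjusted p = 0.029), at 128%, 168% and 157% of N-short KD in the 3 sets, from 34 to 130 reads a library. TFRC differed by -0.08 (adjusted p = 0.426). DESeq2 called 0 of these 8. FTL lost its call without the 96 hr total KD (0.10, adjusted p = 0.296) or the 96 hr N-short KD (0.18, 0.0760). HMOX1 lost it in 5 of 14 such fits, without any 1 of the 48 and 96 hr libraries of total KD or N-short KD or without N-short KD at 24 hr, replicate 2 (edgeR adjusted p of 0.0572 to 0.254).

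Against N-long KD 1 of 8 was called, beside 2.08% of genes. TFRC differed by -0.20 (SE 0.043, edgeR adjusted p = 0.0061), lower in 3 of 3 sets, and FTL by 0.15 (adjusted p = 0.111). TFRC lost its call without total KD at 24 hr (-0.16, adjusted p = 0.0758) or at 48 hr (-0.17, 0.0898), and FTL gained one without either of these or without N-short KD at 24 hr, replicate 1. Of single junctions, 3 FTL junctions were called against N-short KD, beside 0.619% of all, and 2 against N-long KD, beside 0.411%.

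In the 96 hr set, heme oxygenase was higher and the transferrin receptor lower than in the 48 hr set, with all 4 groups paired. Both sets belong to 1 library series. Each time is a single library set, so time and set cannot be told apart. The 4 pairs share those sets and do not replicate time, so the p-values here do not separate a time change from a set difference. A majority of genes moved, 60.1% of 12909 by edgeR, with 29.7% higher and 30.4% lower, so a call here is the usual state of a gene. Of the 8 iron genes 3 were called, 2 higher and 1 lower. HMOX1 went from 5.90 to 7.61 CPM in the control, from 5.00 to 10.9 in total KD, from 2.98 to 6.92 in N-short KD and from 3.86 to 7.91 in N-long KD. The 96 hr value was thus 129%, 217%, 232% and 205% of the 48 hr value, and the log2 difference 0.97 (SE 0.15, edgeR adjusted p = 4.9e-06).

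TFRC was lower at 96 hr by 0.34 on the log2 scale (SE 0.036, edgeR adjusted p = 9.9e-09). The control had 200 CPM at 24 hr, 285 at 48 hr and 198 at 96 hr, with the 24 hr library from another series. The 96 hr level was 69.6% of the 48 hr level in the control, 82.7% in total KD, and 75.1% and 78.2% with N-short or N-long lowered. SLC11A2 differed by 0.11 (edgeR adjusted p = 0.0479), higher in 3 of 4 pairs, and lost the call in 6 of the 8 fits that left out 1 library (adjusted p of up to 0.253), all but those without a total KD library. The adjusted p was 0.061 for ACO1 (-0.08), 0.065 for IREB2 (0.06), 0.067 for FTH1 (-0.06), 0.153 for NCOA4 (0.07) and 0.504 for FTL (0.03), all by edgeR. Without a total KD library FTH1 was called (adjusted p = 0.0098 without 48 hr, 0.013 without 96 hr). FTL was higher at 96 hr in total KD alone, at 116% of its 48 hr level, and stood at 91.1% in the control and 94.3% and 93.8% in the isoform knockdowns.

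In the wider iron lists, 3 genes were called in total KD, each in a different list, beside 2.28% of all genes. The ubiquitin ligase HERC2, which marks NCOA4 for degradation, fell by 0.20 on the log2 scale (edgeR adjusted p = 0.0011), 1 of 8 genes in the list for turnover of the regulators and ferritin. HSPA9, the mitochondrial chaperone of iron-sulfur assembly, rose by 0.15 (adjusted p = 0.0086), 1 of 22 in its list. SLC7A11, which imports cystine for glutathione, rose by 0.93 (SE 0.085, edgeR adjusted p = 2.3e-09). Its control libraries spanned 26.8 to 40.2 CPM and those of total KD 70.9 to 76.8. It was the 1 gene called of 11 in the oxidative stress list, whose median was 0.21 against -0.0007 for all genes. At an unadjusted p under 0.05 were 6 of those 11, beside 1742 of all 13393 genes.

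No gene passed in total KD in the lists for uptake and mobilisation (0 of 12), export and systemic control (0 of 5), heme (0 of 16) and other genes with an iron responsive element (0 of 4). With 2.28% of all genes called, 0 or 1 in lists of this size is near the background. The smallest p in these lists belonged to the transporter SLC39A14 (log2 0.19, edgeR adjusted p = 0.062), the ferroxidase HEPH (-0.03, 0.880), FLVCR2 (-0.49, 0.274) and CDC14A (-0.20, 0.291).

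None of the genes in the 7 lists was called by edgeR in N-short KD, N-long KD or between them. In N-short KD the smallest p of each list belonged to SLC25A28 (log2 -0.43), BMP6 (-1.04), TAX1BP1 (-0.06), ISCU (-0.14), ABCG2 (-0.57), CDC14A (0.03) and MAFG (-0.32), each with an edgeR adjusted p of 0.999. In N-long KD TFR2 (0.34), CP (-0.51), HERC2 (-0.06), CIAO3 (0.20), CPOX (-0.11) and NFE2L2 (0.19) led their lists, each with an adjusted p of 1.00. Between the isoform knockdowns, SLC25A28 (0.35), CP (-0.43), RB1CC1 (0.12), GLRX5 (0.19), ABCG2 (0.365), CDC42BPA (-0.03) and GCLM (0.16) did, with adjusted p of 0.902 to 0.990. At an unadjusted p under 0.05 were BMP6 and ABCG2 in N-short KD, CP in N-long KD, and CP and RB1CC1 between the isoform knockdowns. The lists, like the 9 genes, were set with earlier results of these data known.

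With time, list members were called in both directions, beside 60.1% of all genes. Uptake and mobilisation had 4 higher and 5 lower of 12, led by SLC39A14 (0.40, edgeR adjusted p = 3.5e-08). Turnover had 4 higher and 1 lower of 8, led by CUL1 (0.55, adjusted p = 5.0e-14), a scaffold of the ligase that degrades IRP2. Iron-sulfur clusters had 9 higher and 6 lower of 22, led by HSPA9 (0.47, adjusted p = 5.7e-14). Heme had 5 higher and 3 lower of 16, led by FLVCR1 (0.51, adjusted p = 3.5e-10). Export and systemic control had 0 higher and 3 lower of 4, led by HEPH (-0.72, adjusted p = 2.3e-12). Oxidative stress had 7 higher and 1 lower of 11, with NQO1 at 0.69 (adjusted p = 1.1e-09) and NFE2L2, the factor NRF2, at -0.37 (adjusted p = 0.00028).

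Of the 11 annotated SLC11A2 transcripts, 5 hold the hairpin letters, 3 lack them because a distal splice joins on another last exon, and the other 3 end in the same exon before the letters begin. The upstream splice, 12:50988436-50990794, is used by all of them, and the distal splice is 12:50981804-50988381. The 15 bases on each side of the splices are shown, with those after the splice in capitals.
upstream splice: tttgtgttctacttgGGTTGGCAATGTTTG
distal splice: gactgtgggcatacgTGCCATCTGGGATTG

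Distal reads set against upstream reads follow the forms with the distal last exon, and do not separate the forms with the letters from those that end before them. In the doxycycline libraries summed there were 215 distal and 843 upstream reads, or 25.5 distal per 100 upstream, a share of 20.3% of both splices (95% Wilson interval 18.01 to 22.9). Wild-type HUES66 had 36 of 170 (21.2%, 15.7 to 27.9) and HEK293 12 of 42. A375 had 3 of 20 in total RNA, 10 of 22 in the nuclear and 6 of 18 in the cytoplasmic fraction. The doxycycline libraries ran from 5.33% (4 of 75) in the 96 hr control to 29.6% (24 of 81) in N-long KD at 24 hr, replicate 1. A distal form carries the upstream splice too, so these shares are not the fraction of distal forms. The Wilson intervals treat the 2 kinds of read as exclusive and are only nominal here. The nominal interval of the A375 nuclear share (10 distal beside 12 upstream reads), 26.9 to 65.3, lay above that of the summed doxycycline libraries. It overlapped those of the other A375 libraries, HEK293 and wild-type HUES66. At the other end, 117 and 109 of the 257 doxycycline reads leaving the first exons came from donors 5 bases apart, at 51026309 and 51026314, and the remaining 4 donors had 3 to 13 reads each.

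NCOA4 has an alternative inner first exon and an exon of 155 bases that is occasionally skipped. The exon, 10:46016540-46016694, was included in 96.2% of doxycycline reads (1437 of 1493, 95% Wilson interval 95.2 to 97.1), in 98.1% in wild-type HUES66, 98.5% in HEK293 and 100% (90 of 90) in A375. Its lowest library was N-short KD at 96 hr, with 91.4% (106 of 116). The inner first exon took 133 of 1144 doxycycline reads (11.6%), 4.11% in A375, 7.22% in HEK293 and 4.89% in wild-type HUES66. It was highest at 48 hr, with 15.9% to 23.6% in the 4 groups, against 3.896% to 13.6% at 24 hr and 4.60% to 17.8% at 96 hr, so the times overlap. No test of time was made on this share.

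None of these 3 events was called in a knockdown comparison. By edgeR's quasi-likelihood test on the pair of read counts, 0 of 3 passed in total KD, N-short KD, N-long KD and N-long against N-short KD, beside 1.39%, 0.016%, 0.606% and 0.431% of 6269 exons and ends. The added comparisons of total KD with N-short and N-long KD also gave 0 of 3, beside 1.40% and 0.526%. None had an unadjusted p under 0.05. The intervals are wide, for the SLC11A2 distal splice in total KD a log2 odds ratio of 0.14 with limits of -0.70 and 0.98, so these counts could miss sizeable shifts. For that splice the odds are distal to upstream reads, not distal to other forms.

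**Figure D5:**
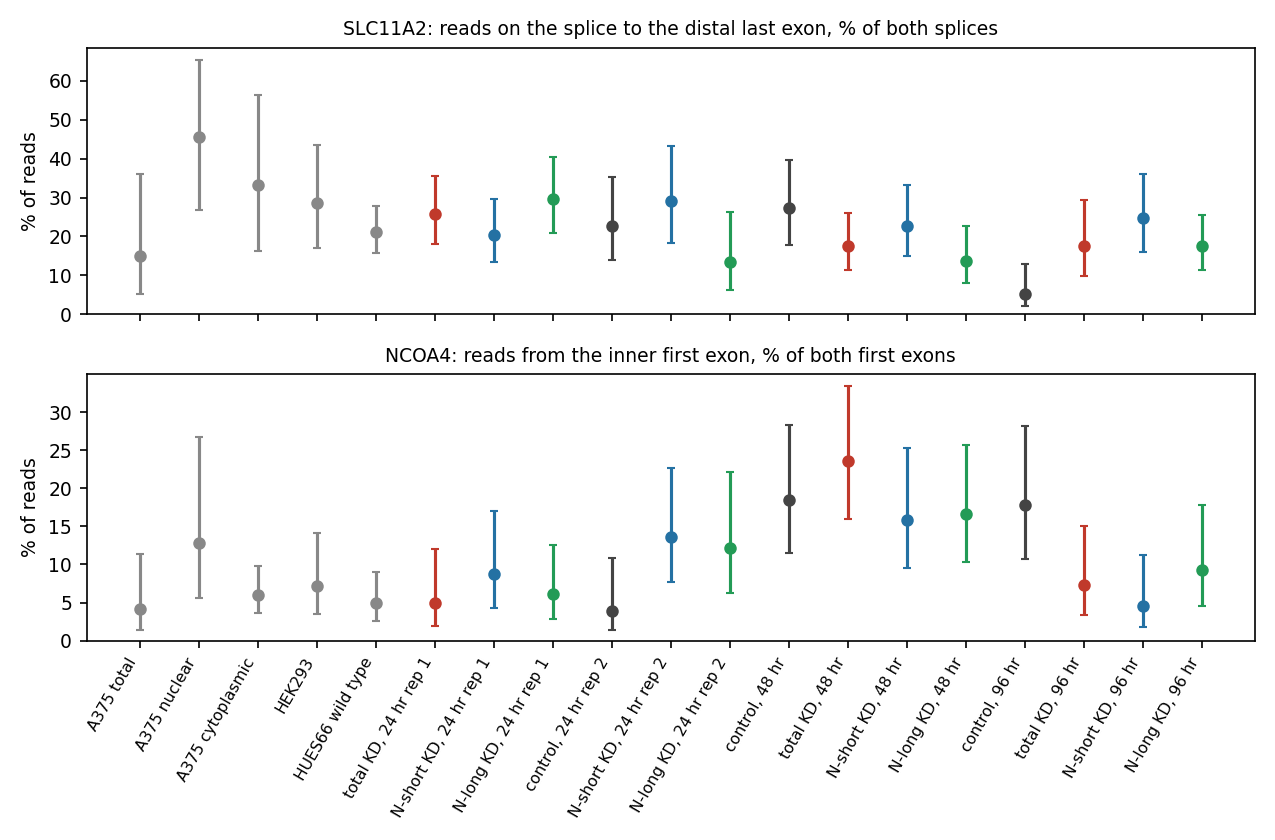
Share of reads on the SLC11A2 distal splice and the NCOA4 inner first exon in each library, with 95% Wilson intervals; grey is single libraries, dark grey the control, red total KD, blue N-short KD and green N-long KD. The SLC11A2 share is of distal and upstream reads together, which are not exclusive, so its intervals are nominal. The SLC11A2 share is lowest in the 96 hr control, at 5.33%, and the NCOA4 share is highest in the 48 hr total KD, at 23.6%.

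Other annotated exons of the genes are given for the doxycycline libraries summed. TFRC exon 3:196075159-196075360 was included in 98.5% of reads, and IREB2 exons 15:78462922-78463087 and 15:78470532-78470601 in 99.7% and 98.6%. NCOA4 exon 10:46015126-46015266 had 36 reads, of which 33 included it (91.7%). The authors' 9 deposited tables of splicing events held 361 events of these genes, of which 0 passed an adjusted p under 0.05 with a difference in inclusion of at least 0.1. Over all events of the authors' deposited tables, 0.00218% to 0.118% passed. The smallest adjusted p for these genes in the authors' deposited table was 0.288, for an FTH1 retained intron in total KD at 96 hr, with a difference of -0.029 (control minus knockdown). The widest differences for these genes in the authors' deposited tables were -0.172 for an HMOX1 event in total KD at 96 hr (adjusted p = 0.953) and -0.168 for an SLC11A2 event in total KD at 48 hr (adjusted p = 1), so the lack of a call does not show that inclusion was constant.

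FTH1 has annotated introns inside its first exon, clear of the hairpin. One of 94 bases, 11:61967454-61967547, begins with GC and ends with CG, and had 62 reads in A375 total, 346 in the cytoplasmic and 0 in the nuclear fraction, 24 in wild-type HUES66, 249 in the doxycycline libraries and 0 in HEK293. That was 0.278% of all FTH1 reads. All FTH1 reads came to 13951 in A375 total, 99834 in the cytoplasmic and 2169 in the nuclear fraction, and 2046 in HEK293. The counts of 0 thus lay in the libraries with the fewest FTH1 reads, and do not set a compartment or line apart. Another of 86 bases, 11:61967372-61967457, had 99 reads, all in the cytoplasmic fraction.

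Across the 19 libraries, the genes most like each of 3 iron genes were listed by Pearson's r on log2 CPM over 10104 genes. The libraries share sets, lines and fractions, so r is a description. CPD (r = 0.968), SLC35F5 (0.961) and CHID1 (0.959) were most like TFRC. TPT1 (0.984), RPL30 (0.971) and RPLP0 (0.968) were most like FTH1. MRPL15 (0.857), LYAR (0.856) and PPRC1 (0.856) were most like HMOX1. FTH1 and FTL had an r of 0.572, FTH1 and TFRC -0.816, and FTL and TFRC -0.725. These r span lines and fractions. FTH1 and TFRC had 4766 and 39.0 CPM in the A375 cytoplasmic fraction, and 358 and 470 in the nuclear one. For the doxycycline libraries alone r was not computed. There FTH1 and TFRC were both lower at 96 than at 48 hr in 4 of 4 pairs. In total KD against control they differed in opposite directions (log2 0.08 and -0.31).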

How the data were processed

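RNA of 19 libraries was ribosome-depleted and sequenced, per the labels' protocols. The submitters' processing notes name hg38, STAR 2.7.1 and SAMtools 1.9, with no role given. The deposited junction files give counts of reads spanning each intron (column 5). In 9 deposited event tables the authors give a p-value, an adjusted p-value and a difference in inclusion, control minus knockdown, per event. Their 69 per-library columns were not used.

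Reads on introns that GENCODE 29 annotates to a single gene were summed per gene (93.3% to 94.8% of junction reads). Knockdowns were tested with edgeR 4.0.16 (R 4.3.3; quasi-likelihood, TMM, filterByExpr) over the 14 doxycycline-treated libraries with library set as a block, and 96 against 48 hr over 8 libraries with knockdown as the block, with Benjamini-Hochberg adjustment over all genes tested and a threshold of 0.05. Single junctions, and pairs of inclusion and skipping reads of exons and ends (mean of at least 20 reads a library, pooled inclusion of 2% to 98%), were fitted likewise. Same-set libraries deviated together (residual correlations of 0.41 to 0.82 within each set). Libraries of different sets reached up to 0.575, so some of these pairs correlated more than some same-set pairs. The sets come from the labels. Lines and fractions have 1 library each: ratios of CPM with a pseudocount of 0.5 reads, for genes with at least 20 reads in the pair, have exact 95% counting intervals and no test. Shares have Wilson intervals. The scripts were tested on simulated data. Alternatives were DESeq2 1.42.0, limma 3.58.1 for exons, no filter, no block, other scaling, thresholds and pseudocounts, wild-type HUES66 among the controls, and leaving out each library. Python 3.11.15 with numpy 2.4.6, pandas 2.3.3 and scipy 1.17.1 was used.

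The 9 genes are all named. From each pathway list the gene with the smallest p and the genes that passed are named, except over time, where only leading genes are. The genes, lists and tests were chosen with earlier results of these data known. For the other genes with an iron responsive element, the change over time and the leading gene in N-long KD are not reported here.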

Additional observations from a re-analysis of the deposited data

Results flagged for a closer look

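IREB2 was lowest in 24 hr replicate 1 in both groups of 4 libraries that could be examined for a library far from the rest. That library had 235.3 CPM against 258.2 to 258.8 in the other 3 of N-short KD, and 236.2 against 258.5 to 261.3 in N-long KD. The gap took 0.971 and 0.888 of the whole range. These were 2 of 18 groups examined, and chance flags about 1 in 20. The total KD library of the same set had 246.2 CPM and wild-type HUES66 240.3.

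FTL moved in opposite directions between 48 and 96 hr. The 96 hr level was 116.2% of the 48 hr level in total KD (95% counting interval 111.9 to 120.6), but 91.15% in the control, 94.34% with N-short lowered and 93.77% with N-long lowered. Each rests on 1 library a time, and the difference between groups was not tested.

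An unannotated FTL junction, 19:48965917-48966283, carried 245 reads and was seen in all 19 libraries, 161 of its reads in the doxycycline libraries. Its end is 3 bases from the annotated 48966280, and it made up 0.761% of the pair, from 0.261% to 1.44% by library.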

How the results depend on the processing

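Without the replicate block (a term for time point in place of library set), edgeR called 0 iron genes in total KD against control, 0 against N-short KD and 0 against N-long KD, 1 of their junctions in total KD against control and 0 in the other two. TFRC then differed by -0.2142 (adjusted p = 0.367) and FTL by 0.2466 (adjusted p = 0.245) in total KD, and FTL in N-short KD turned to 0.01603. Calls over all genes fell to 62, 68 and 40. DESeq2 called 1 iron gene (TFRC) in total KD against control and 0 against N-short KD. With no filter 1 (TFRC) was called in N-short KD and 2 (TFRC, FTL) in total against N-long KD. With wild-type HUES66 among the controls 1 (TFRC) was called in N-short KD, and 549 of all genes in total KD. At isoform contrasts the calls over all genes were 0 to 1 with DESeq2, 4 to 17 with no filter and 0 without the block, and limma called 12 exons in total KD, 11 and 1 against N-short and N-long KD, and 0 otherwise. Counts of exons without the block were 20 for N-long KD, 15 between the isoforms and 19 for total against N-long KD.

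Leaving out each library in turn, the iron genes called were 1 to 2 in total KD, 0 to 1 for N-short KD, 0 to 0 for N-long KD and between the isoforms, 0 to 2 for total against N-short KD, 1 to 2 for total against N-long KD and 2 to 4 over time. Signs turned for HMOX1 in total KD (-0.1105 to 0.3471) and N-long KD (-0.3853 to 0.03489), and for FTL with N-short (-0.06745 to 0.04096) or N-long (-0.00709 to 0.1012) lowered and over time (-0.05126 to 0.06893). Over all genes, calls ran from 162 to 333 in total KD.

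SLC11A2 over time lost its call with DESeq2 (adjusted p = 0.155), with no filter (0.0536), without the block (0.0750) and with all 14 libraries (0.0680), a fit that called IREB2 (0.067, adjusted p = 0.04999). Between lines, a minimum of 100 reads left 0 iron genes at least 2-fold lower in A375 or HUES66 than in HEK293, since SLC40A1 dropped out, and TMM scaling put 2 (SLC11A2, HMOX1) at least 2-fold lower in A375 than in HUES66. With the lower of the 2 inclusion junctions the NCOA4 exon stood at 94.75%. Except where stated, the cause was not tested. Depth limits HMOX1 (34 to 130 reads a doxycycline library), the SLC11A2 and NCOA4 shares, and SLC40A1, which stayed outside the knockdown fit.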
